A study of Rattus norvegicus with 6 samples.

Results

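The rat family of miR-148a, miR-148b and miR-152 was followed in the small RNA of plasma exosomes through 4 mature miRNAs, which were taken by name from the deposited table: rno-miR-148a-3p, rno-miR-148b-3p, rno-miR-152-3p and rno-miR-152-5p. All 4 were listed among the 420 distinct miRNAs of the table. The 5p strands of the remaining precursors, rno-miR-148a-5p and rno-miR-148b-5p, were listed as well and are described beside them. The EXO2 group (3 libraries) held exosomes of rats injected intraperitoneally with 10 mg/kg melatonin, the hormone of the pineal gland, on 7 days in a row, and the EXO1 group (3 libraries) those of rats injected with the solvent alone. Rats of both groups were adult male Sprague Dawley rats, received a solvent of 5% DMSO in buffered saline, and gave plasma on day 8. The labels name a centrifugation and the methods a kit for the isolation, and neither says whether a library was 1 rat or a pool, so that p-values speak only of variation among the libraries, part of which may be technical.

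A microRNA directs the silencing complex to messenger RNAs through its seed, the bases 2 to 8 from the 5′ end, so that miRNAs with the same seed share many targets. One strand of each precursor, the guide, is usually kept, whereas the passenger strand is mostly degraded. For miR-148a, miR-148b and miR-152 the guide is the 3p strand. In human and mouse cells these guides repress DNMT1, the enzyme that maintains DNA methylation, and miR-148a lowers the LDL receptor in the liver. miR-148a is abundant in liver and pancreas. miR-152-3p has been studied in ischemic injury. The study had picked both strands of miR-152 from these same libraries as lower in EXO2, so the values of these strands are not independent evidence of that direction.

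The family was matched to the mature sequences of RefSeq (build GRCr8) for all 4 members and for miR-148a-5p. They are shown because the guides differ by so few bases. Capitals mark the seed.
rno-miR-148a-3p: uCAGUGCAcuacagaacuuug
rno-miR-148b-3p: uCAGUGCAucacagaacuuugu
rno-miR-152-3p: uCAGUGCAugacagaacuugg
rno-miR-152-5p: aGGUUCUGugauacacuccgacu
rno-miR-148a-5p: aAAGUUCUgagacacucugacuc

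The 3 guides had the same seed, which no other of the 693 rat mature miRNAs in that table had. Over their first 21 bases, counted from the 5′ end, miR-148a-3p and miR-148b-3p differed by C9U and U10C (miR-148a-3p first). miR-148b-3p and miR-152-3p differed by C10G and U20G, and miR-148a-3p and miR-152-3p by C9U, U10G and U20G. How many mismatches the authors allowed when reads were assigned is not given in the sources used here, so some reads could stand under a neighbouring guide. In EXO2 replicate 1, miR-148a-3p had 128871 reads, against 1395 for miR-148b-3p and 1839 for miR-152-3p. A small part of the miR-148a-3p reads would thus be a large part of those of the other guides. The 5p strands of miR-152 and miR-148a had seeds that differed from that of the guides and from each other.

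The guides come from 3 separate loci. In build GRCr8, Mir148a lies on the minus strand at chr4:81664431-81664527, outside the span of any other annotated gene. Mir148b lies on the plus strand at chr7:136299870-136299966, within the span of Copz1, and Mir152 on the plus strand at chr10:82329383-82329467, within the span of Copz2. Copz1 and Copz2 are also on the plus strand and encode the zeta subunits of the COPI vesicle coat. Whether these places are exonic or intronic was not looked up, since the annotation used here holds gene spans alone. The precursor of miR-148a shows how guide and passenger face each other, with the 5p strand as the first run of capitals and the 3p strand as the second.
Mir148a precursor: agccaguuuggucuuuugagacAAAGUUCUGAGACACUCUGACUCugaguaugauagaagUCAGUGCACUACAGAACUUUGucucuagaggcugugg

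The libraries differed in what surrounded the family. They held 3033119 to 4999379 miRNA reads in EXO2 and 2279500 to 5868405 in EXO1. The 9 miRNAs listed for red blood cells took 57.6% to 67.7% of the reads of a library in EXO2 and 7.86% to 23.9% in EXO1. Muscle miRNAs, of which 9 of the 12 listed were present, took 0.739% to 1.51% in EXO2 and 0.909% to 82.6% in EXO1, with the 82.6% in EXO1 replicate 1. The deposited values, headed as CPM, had been scaled by library factors of 0.941 to 1.38 in EXO2 and 0.264 to 1.86 in EXO1, with the 0.264 in EXO1 replicate 1, so its values lie above plain CPM (reads scaled to a common library total). They are called normalised CPM here. The share of reads is therefore given on further scales where it matters. Reads were inferred by dividing each value by the step of its library, so read counts, their shares and their intervals hold only if 1 step is 1 read. Intervals and floors cover counting error only, because no molecular identifiers tell PCR copies of a molecule apart.

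The 3 guides were present in every library, and miR-148a-3p made up nearly all of them. miR-148a-3p was among the 6 most abundant miRNAs of each of the 6 libraries, with ranks of 2, 5 and 6 in EXO2 and 5, 4 and 5 in EXO1. It supplied 97.6%, 95.1% and 95.5% of the reads with the family seed in EXO2 and 91.7%, 93.4% and 92.5% in EXO1. The widest 95% Wilson interval of these shares was that of EXO1 replicate 1, 91.4% to 91.9%. Thus every EXO2 library held a larger part of miR-148a-3p among the guides than any EXO1 library. miR-148b-3p and miR-152-3p lay far below, and their order changed between libraries. miR-148b-3p was above miR-152-3p in EXO2 replicates 2 and 3 and in EXO1 replicate 2, and below it in EXO2 replicate 1 and EXO1 replicates 1 and 3. miR-152-5p, the passenger strand, was the lowest of the 4 members in all 6 libraries.

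rno-miR-148a-3p, the leading guide of the family, did not separate the groups. Replicates 1, 2 and 3 stood at 28529, 21670 and 20048 normalised CPM for EXO2, against 33776, 19259 and 37606 for EXO1. EXO1 replicate 2 was the lowest of the 6, and EXO2 replicate 1 lay between the EXO1 libraries, so the groups overlapped. The mean was 23416 ± 4502 in EXO2 and 30214 ± 9678 in EXO1 (SD, n = 3 each). By limma, the log2 fold change of EXO2 over EXO1 was -0.33 (standard error 0.60, 95% interval -1.62 to 0.97, Benjamini-Hochberg adjusted p = 0.770). The interval is wide, and the test does not show that the level was the same.

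On the scale of plain reads, miR-148a-3p took 4.25%, 2.41% and 2.02% of the library in EXO2 and 0.908%, 3.91% and 6.04% in EXO1. The lowest share, in EXO1 replicate 1, stands beside the 82.6% of muscle reads in that library. Of the reads outside the erythrocyte and muscle lists, miR-148a-3p took 10.3%, 7.07% and 6.40% in EXO2 and 9.49%, 7.38% and 6.88% in EXO1. On this last scale the groups covered nearly the same range. The log2 fold change was -0.02 on plain CPM and -0.01 relative to the reads outside those lists.

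rno-miR-148b-3p, the guide from the Copz1 locus, had lower values in EXO2 that missed the thresholds. Its normalised CPM was 309, 842 and 671 for the EXO2 replicates 1, 2 and 3, against 1080, 975 and 1406 for EXO1. On this scale every EXO2 library was below every EXO1 library, with EXO2 replicate 1 the lowest of all. The mean was 607 ± 272 in EXO2 and 1154 ± 224 in EXO1 (SD, n = 3 each), and limma gave a log2 fold change of -1.03, with a standard error of 0.53 and an adjusted p of 0.369. It was -0.60 without EXO2 replicate 1, and it reached an unadjusted p of 0.0330 in limma only with median-ratio size factors. Of reads outside the erythrocyte and muscle lists, it took 0.112%, 0.275% and 0.214% in EXO2 and 0.303%, 0.374% and 0.257% in EXO1, so on that scale the groups overlapped. They also overlapped in plain reads, with 0.0460%, 0.0939% and 0.0676% of the library in EXO2 and 0.0291%, 0.198% and 0.226% in EXO1. There EXO1 replicate 1 was the lowest of all. The log2 fold change on plain CPM was -0.72 (unadjusted p = 0.495 in limma).

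rno-miR-152-3p, the guide from the Copz2 locus, had the lowest log2 fold change of the 3 guides. The EXO2 replicates 1, 2 and 3 stood at 407, 266 and 270 normalised CPM, against 1993, 386 and 1642 for EXO1. On this scale the EXO2 libraries lay close together, whereas EXO1 replicate 2 lay among them and EXO1 replicates 1 and 3 stood several times higher. The ranges overlapped by this library alone, since EXO2 replicate 1 was above EXO1 replicate 2. The mean was 314 ± 80.5 in EXO2 and 1340 ± 845 in EXO1 (SD, n = 3 each). By limma, the log2 fold change was -1.81 (standard error 0.64, 95% interval -3.17 to -0.45, unadjusted p = 0.0127, adjusted p = 0.313). The median over all 410 miRNAs tested was -0.56, which placed miR-152-3p 1.25 below it on the log2 scale.

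The log2 fold change of miR-152-3p leaned on the 2 EXO1 libraries that were high in normalised CPM. It was -1.37 without EXO1 replicate 1 and -1.51 without EXO1 replicate 3, with unadjusted p of 0.0716 and 0.0515 in limma, so that leaving out either one took it outside the study's thresholds (fold over 1.5, unadjusted p under 0.05). On plain CPM the unadjusted p in limma was 0.162, and with the own variance of each miRNA it was 0.0796. Without EXO1 replicate 2 it was -2.55 (adjusted p = 0.0960 in limma, within a range of 0.0960 to 0.567 over all alternatives). Of reads outside the erythrocyte and muscle lists, miR-152-3p took 0.147%, 0.0868% and 0.0861% in EXO2 and 0.560%, 0.148% and 0.301% in EXO1.

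rno-miR-152-5p, the passenger strand of the same precursor, was almost absent from EXO2. The EXO2 replicates 1, 2 and 3 gave 0, 3 and 1 reads of it, against 57, 20 and 47 reads in EXO1. In normalised CPM this was 0, 0.538 and 0.266 in EXO2, and 36.1, 4.33 and 10.4 in EXO1. All 3 EXO2 libraries lay at or under the value of 3 reads, which is 0.664, 0.538 and 0.798 there, and all 3 EXO1 libraries lay above their own floors of 1.90, 0.649 and 0.663. Relative to the scaled library sizes, summed by group, the 4 reads of EXO2 against the 124 reads of EXO1 gave a ratio of 0.0250. The sums carry no measure of the spread between libraries, which in EXO1 ran from 4.33 to 36.1 normalised CPM. The log2 fold change on log2(value + 1) was -3.39 (standard error 1.46, unadjusted p = 0.0348, adjusted p = 0.342 in limma), a value that depends on the pseudocount and was -5.38 with 0.1 in place of 1. Without EXO2 replicates 1, 2 or 3 the unadjusted p in limma was 0.0694, 0.0649 and 0.0888.

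**Figure D1:**
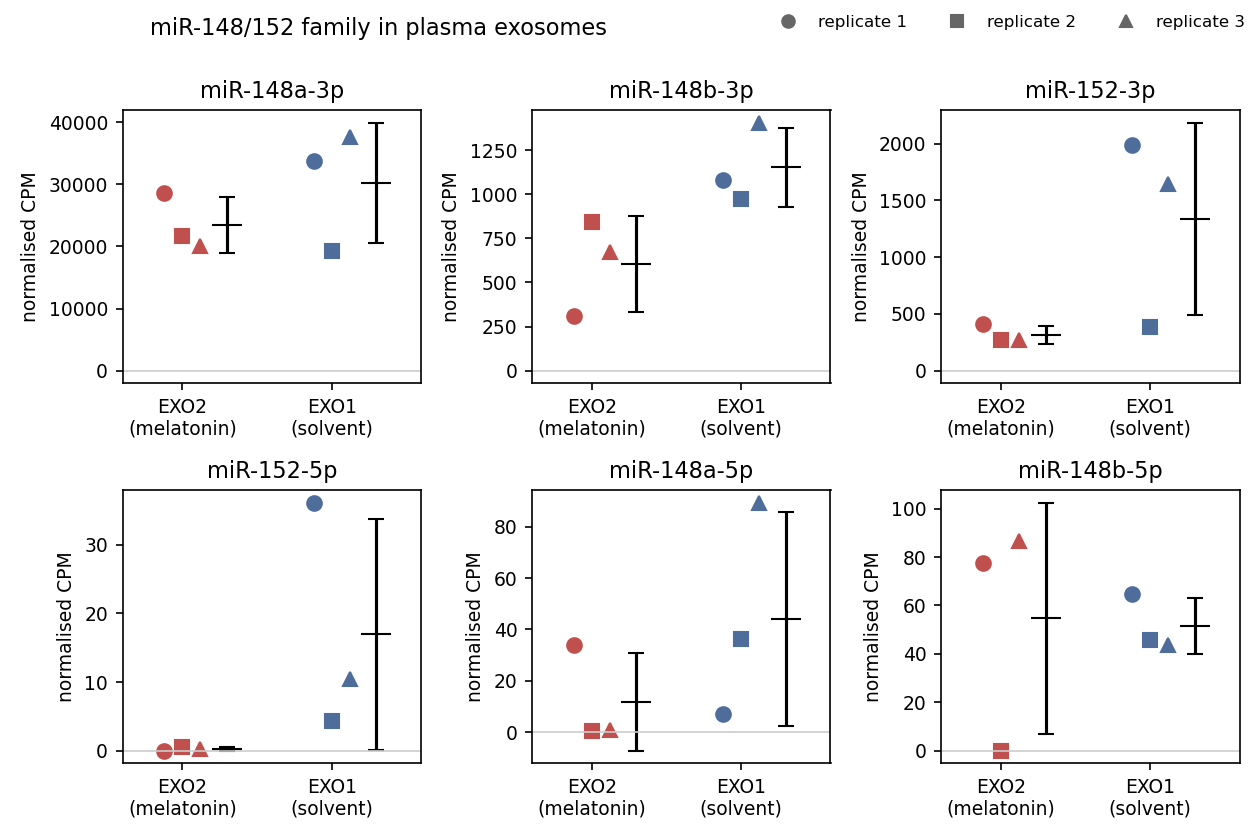
Normalised CPM (linear axis) of the 4 family members and of the 5p strands of miR-148a and miR-148b, 1 point per library, EXO2 (melatonin, left) and EXO1 (solvent, right). The black mark gives the mean and SD of 3 libraries. miR-152-3p stands at 266 to 407 in EXO2, with EXO1 replicate 2 at 386 and the other EXO1 libraries at 1993 and 1642.

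Within the thresholds of the study's methods, given above for miR-152-3p, 2 of the 4 members were lower in EXO2, miR-152-3p and miR-152-5p, and none was higher. Over all 410 miRNAs tested, 13.2% met these thresholds in either direction, and 7.32% met them as lower in EXO2. None of the members and 0.0% of all miRNAs passed an adjusted p of 0.05 in limma, where the count at an unadjusted p under 0.05 was 54. Complete separation in normalised CPM, with every EXO2 library below every EXO1 library, was seen for miR-148b-3p and miR-152-5p, against 9.51% of all miRNAs. In plain reads miR-148b-3p was not separated. Since the study chose the miR-152 strands on these libraries, the counts describe the family and do not test it. All 4 members had negative log2 fold changes with a median of -1.42, beside 256 of 410 (62.4%) negative and a median of -0.56 over all miRNAs. All 4 members met the condition for being tested, a value above 0 in at least 2 libraries, and 3 of them, the guides, were above 0 in all 6.

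**Figure D2:**
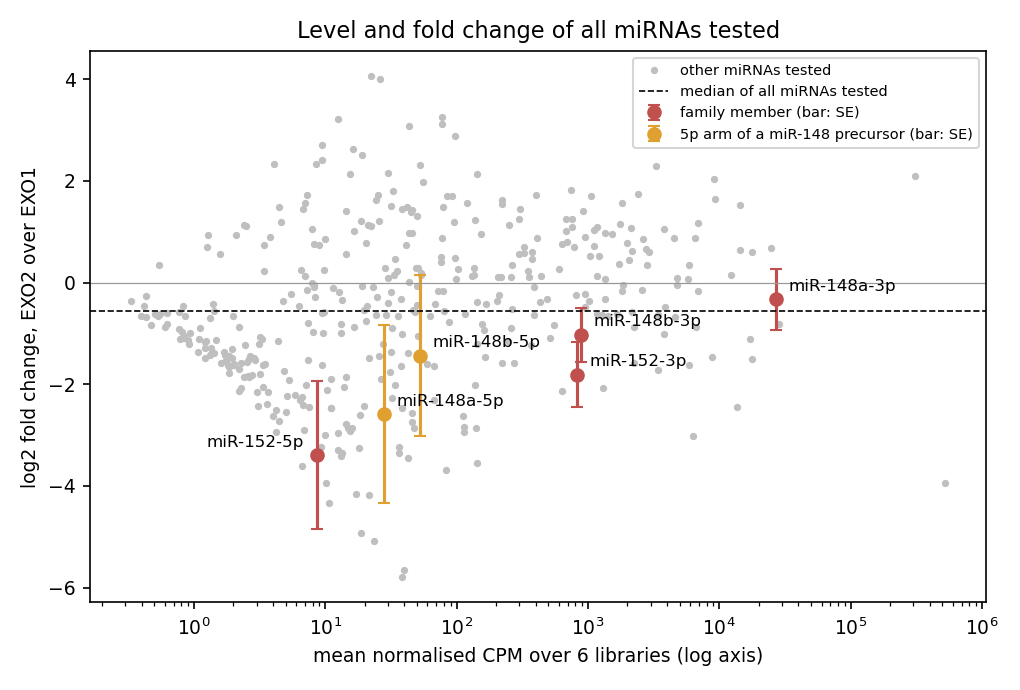
Log2 fold change of EXO2 over EXO1 against the mean normalised CPM over 6 libraries (log axis) for the 410 miRNAs tested, with family members in red, the 5p strands of the miR-148 precursors in orange, standard errors as bars and the median of all miRNAs as a dashed line. miR-148a-3p, at -0.33, lies above that median of -0.56 (but below the median of -0.06 with the filter of 10 in 3 libraries), and the other 3 members, at -1.03, -1.81 and -3.39, lie below it.

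Other scalings, filters and pseudocounts, and leaving out single libraries, changed the size of the log2 fold changes of the members and the direction of none. The log2 fold change of miR-148b-3p ran from -1.32 to -0.60 over the alternatives and that of miR-152-5p from -5.38 to -2.64.

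**Figure D3:**
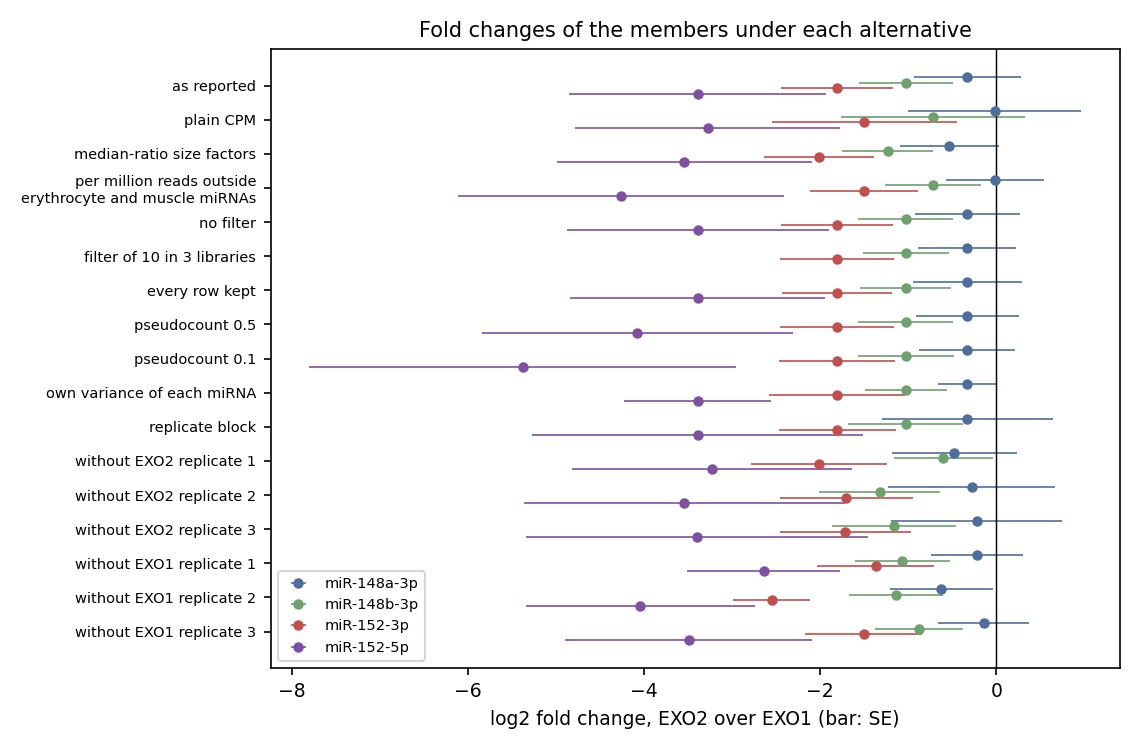
Log2 fold change of EXO2 over EXO1 with its standard error for the 4 members, as reported and under each alternative (miR-152-5p was not tested with the stricter filter). All values are below 0, from -0.01 to -0.62 for miR-148a-3p and from -1.37 to -2.55 for miR-152-3p.

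A ratio of guides within a library does not depend on the factor by which the library was scaled. The ratio of miR-148a-3p to miR-152-3p was 70.1, 81.5 and 74.4 in the EXO2 replicates, against 16.9, 50.0 and 22.9 in EXO1. The EXO2 libraries lay close together, and each was above every EXO1 library. On the log2 scale the ratio was 6.23 ± 0.11 in EXO2 and 4.75 ± 0.80 in EXO1 (SD, n = 3 each), a difference of 1.48. By a 2-sided exact permutation test this gave p = 0.1, the smallest that 3 against 3 libraries allow, and 0.3 after adjustment over the 3 ratios compared. The study picked miR-152-3p as lower in EXO2 from these same libraries, so this ratio is not independent evidence of that direction. The larger part of miR-148a-3p among the guides in EXO2, given above, partly rests on the same values. The difference was 1.15 to 1.93 when 1 library was left out. Reads assigned to a neighbouring guide would change these ratios, and this was not tested.

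The other ratios overlapped between the groups. miR-148a-3p over miR-148b-3p was 92.4, 25.7 and 29.9 in EXO2 and 31.3, 19.7 and 26.8 in EXO1, with the value of EXO2 replicate 1 far above the rest. The log2 difference was 0.70 (2-sided exact permutation test, p = 0.5) and 0.12 without EXO2 replicate 1. miR-148b-3p over miR-152-3p was 0.759, 3.17 and 2.49 in EXO2 and 0.542, 2.53 and 0.856 in EXO1, a log2 difference of 0.78 (2-sided exact permutation test, p = 0.5), which ran between 0.30 (EXO1 replicate 1 left out) and 1.41 (EXO2 replicate 1 or EXO1 replicate 2 left out).

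**Figure D4:**
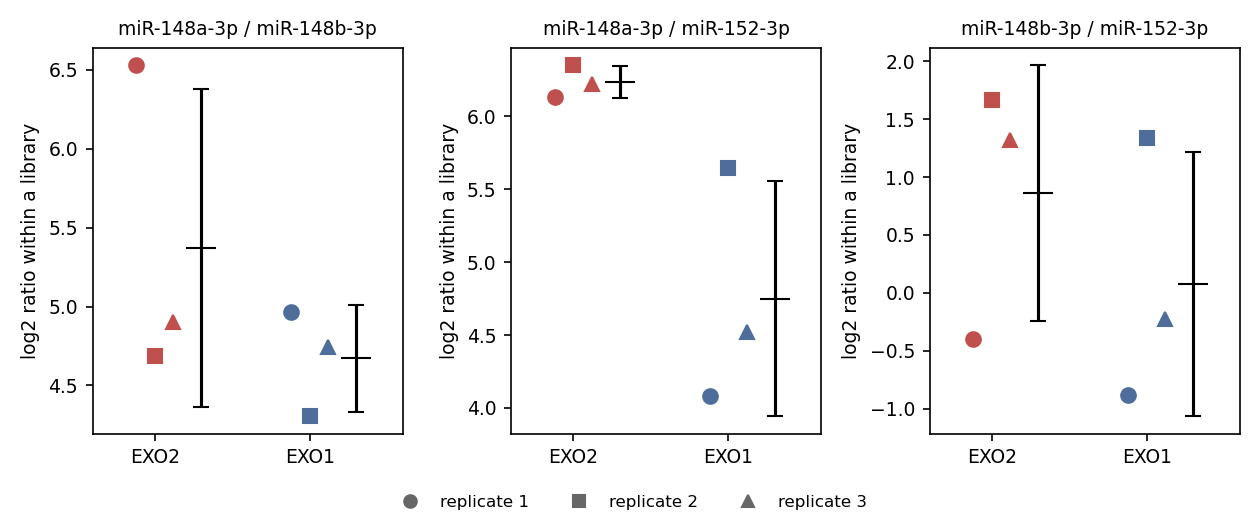
Log2 ratio of normalised CPM between pairs of guides within each library, EXO2 left and EXO1 right, with the mean and SD of 3 libraries in black (the axes do not start at 0). The ratio of miR-148a-3p to miR-152-3p is 6.13 to 6.35 in EXO2 and 4.08 to 5.64 in EXO1, and the other ratios overlap.

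The passenger strands did not follow a common pattern. For miR-152, the 5p strand made up 0%, 0.202% and 0.0986% of the reads of both strands in EXO2 and 1.78%, 1.11% and 0.628% in EXO1. The 95% Wilson intervals of EXO2 replicates 1, 2 and 3 reached up to 0.208%, 0.592% and 0.556%, while that of EXO1 replicate 3 began at 0.473%. Every EXO2 share was below every EXO1 share.

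rno-miR-148a-5p gave 153, 4 and 4 reads in the EXO2 replicates, against 11, 167 and 404 reads in EXO1. Its normalised CPM was 33.9, 0.718 and 1.06 in EXO2 and 6.97, 36.1 and 89.2 in EXO1, so each group held high and low libraries. In limma its log2 fold change was -2.58, with a standard error of 1.76 and an adjusted p of 0.449. Without EXO2 replicate 1 it was -3.99 (unadjusted p = 0.0375, adjusted p = 0.436 in limma), the 1 of 16 alternatives within the study's thresholds. Over the EXO1 libraries the highest value was 1.95 times the lowest for the guide, whereas for the 5p strand it was 12.8 times the lowest.

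rno-miR-148b-5p gave 350, 0 and 326 reads in the EXO2 replicates, against 102, 212 and 197 reads in EXO1. Its normalised CPM was 77.5, 0 and 86.8 in EXO2 and 64.6, 45.9 and 43.5 in EXO1. Without the library at 0, EXO2 replicate 2, the EXO2 values were above all of EXO1. The limma estimate of -1.44 on the log2 scale, with a standard error of 1.59 and an adjusted p of 0.607, turned to 0.69 without EXO2 replicate 2. Of the reads of both strands of miR-148b, the 5p strand held 20.1%, 0% and 11.5% in EXO2 and 5.64%, 4.49% and 3.00% in EXO1. For the 0 of EXO2 replicate 2, a library with 4692 reads of the guide, the 95% Wilson interval reached up to 0.0818%.

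**Figure D5:**
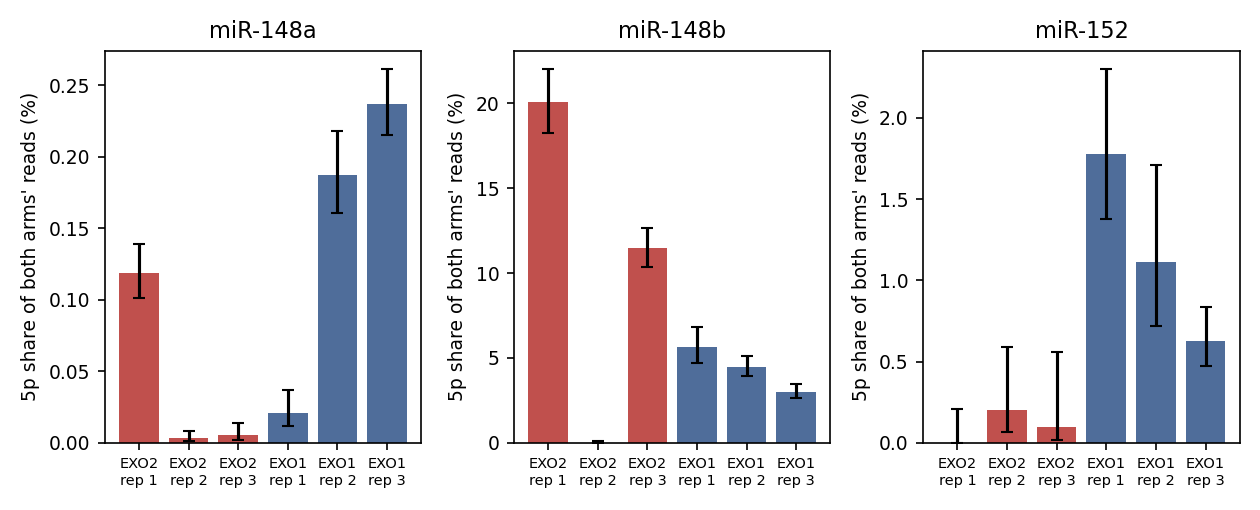
Share of the 5p strand among the reads of both strands of each precursor (percent, bars from 0, each panel with its own axis), 1 bar per library, EXO2 in red and EXO1 in blue, with 95% Wilson intervals. The share of miR-152-5p is 0% to 0.202% in EXO2 and 0.628% to 1.78% in EXO1, and the shares of miR-148a-5p and miR-148b-5p vary within the groups.

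Across the 6 libraries, the Pearson r on log2(value + 1) was 0.90 between miR-152-3p and miR-152-5p (Spearman rho 0.60), 0.88 between miR-148a-3p and miR-152-3p (rho 0.71) and 0.74 between miR-148b-3p and miR-152-5p (rho 0.94). The r of miR-148a-3p with miR-148b-3p was 0.23 (rho 0.49). The order of the pairs thus differed between the measures. These are descriptions over 6 libraries of 2 groups, which share depth and scaling factors. Likeness by r was taken over the 136 miRNAs outside the family with a mean of at least 100 normalised CPM. The 3 most like miR-152-3p were miR-146a-5p (r = 0.98, rho 0.89), miR-122-5p (0.96, rho 0.94) and miR-26a-5p (0.96, rho 0.60). miR-146a-5p restrains inflammatory signalling and miR-122-5p is the main miRNA of hepatocytes. The 3 most like miR-148a-3p were miR-146a-5p (0.93, rho 0.83), miR-411-5p (0.93, rho 0.89) and miR-30a-3p (0.90, rho 0.89). Those most like miR-148b-3p reached lower r, with 0.84 for miR-28-3p (rho 0.66), 0.79 for miR-134-5p (rho 0.60) and 0.78 for miR-100-5p (rho 0.83).

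The likeness of miR-152-3p and miR-122-5p shows in the single libraries. miR-122-5p had 3526, 2071 and 2807 normalised CPM in EXO2 and 22072, 3095 and 48760 in EXO1. On this scale EXO1 replicates 1 and 3 were high and EXO1 replicate 2 lay among the EXO2 libraries, as for miR-152-3p. Both values of EXO1 replicate 1 carry its library factor of 0.264. In plain reads its share of miR-152-3p, 0.0536%, lay within the EXO2 range. How far the likeness rests on the scaling was not tested. miR-146a-5p had 989, 852 and 851 in EXO2 and 1616, 882 and 1838 in EXO1. Other miRNAs listed for liver were not all alike. miR-192-5p had 2786, 1688 and 1853 in EXO2 and 2468, 1302 and 10395 in EXO1. miR-194-5p had 935, 977 and 755 in EXO2 and 596, 535 and 4227 in EXO1. For both, only EXO1 replicate 3 was above all EXO2 libraries. miR-122-3p was at 0 in all EXO2 libraries and at 5.07, 1.08 and 17.9 in EXO1.

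miRNAs listed for other cell types were measured in the same libraries, and their part in the values of the family was not tested. Their counts within the study's thresholds stand beside the 7.32% of all miRNAs that were lower and the 62.4% with negative log2 fold changes. For counts of higher miRNAs, 24 of all 410 were within the thresholds as higher. All 4 liver miRNAs listed had negative log2 fold changes, 2 of them within the thresholds, and their summed level was 4737 to 7247 normalised CPM in EXO2 and 4933 to 63400 in EXO1. The summed level of the 14 vascular and mesenchymal miRNAs was 14369 to 19629 in EXO2 and 27221 to 142524 in EXO1, with 14 negative log2 fold changes and 7 within the thresholds. Of the 4 pancreas miRNAs, summed at 28.5 to 225 in EXO2 and 177 to 471 in EXO1, all had negative log2 fold changes and 2 were within the thresholds. Their plain share was 0.00287% to 0.0335% in EXO2 and 0.00475%, 0.0583% and 0.0757% in EXO1. For the liver, vascular and pancreas lists, EXO1 replicate 1 was thus not above all EXO2 libraries in plain reads. miR-216a-5p and miR-216b-5p were at 0 in all EXO2 libraries and in EXO1 replicate 1. miR-217-5p had 0, 0.179 and 0 normalised CPM in EXO2 and 18.4, 75.9 and 135 in EXO1, whereas miR-375-3p, with 225, 145 and 28.5 in EXO2 and 158, 185 and 225 in EXO1, overlapped. All 9 erythrocyte miRNAs had positive log2 fold changes, 5 of them within the thresholds, with 386669 to 672641 in EXO2 and 70830 to 292114 in EXO1. The 4 platelet miRNAs, summed at 15720 to 20360 in EXO2 and 10386 to 23491 in EXO1, and the 7 leukocyte miRNAs, summed at 4722 to 5173 in EXO2 and 3321 to 6377 in EXO1, overlapped, and none was within the thresholds. Of the 9 muscle miRNAs, 7 had negative log2 fold changes and 2 were within the thresholds as lower. Whether exosomes held less miR-152 or other RNA took a larger part of them cannot be told apart in bulk libraries.

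The other miRNAs that are reported to repress DNA methyltransferases in human cells, as the guides of this family do, are given for comparison. Of 9 listed and tested, 5 had positive and 4 negative log2 fold changes, none was within the study's thresholds, and the median was 0.08. miR-29a-3p, a repressor of DNMT3A and DNMT3B, had 1086, 1051 and 769 normalised CPM in EXO2 and 604, 1771 and 3217 in EXO1, a log2 difference in limma of -0.66 with a standard error of 0.60 and an adjusted p of 0.534. miR-29b-3p and miR-29c-3p, which have the same targets, had log2 fold changes of 0.10 and 0.08. miR-126a-3p, the endothelial miRNA, was the most abundant of this list in EXO2, with 10420, 12595 and 14150 in EXO2 and 7899, 8195 and 20717 in EXO1. The groups overlapped for each of these 4. Larger log2 fold changes, also with overlapping groups, were those of miR-342-3p (-1.64, standard error 1.49), miR-143-3p (-1.51, 0.77) and miR-185-5p (0.96, 0.56). These and miR-126a-3p also stand in the cell type lists above, so the comparison is not a separate one.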

How the data were processed

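Small RNA of plasma exosomes had been sequenced in 6 libraries. Reads shorter than 15 nucleotides were dropped by the authors, and miRDeep2 served for annotation. Tools credited to the submitters' notes are cutadapt 1.14, Bowtie and edgeR 3.18.1. Build and miRNA release stand as not given in the sources used here. Values deposited as signal, headed CPM, were whole multiples of 1 step per library (100%, relative tolerance 1e-06), from which reads were inferred. In 5 of the 6 libraries low values were too few (under 100) to establish that 1 step is 1 read, so no test on counts was run. The authors' deposited log2 group means served as a check alone.

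Of 468 rows, the highest-sum row of each of 420 miRNAs was kept. A value above 0 in 2 or more libraries left 410 for limma 3.58.1 under R 4.3.3 (trend, no covariate) on log2(value + 1), with Benjamini-Hochberg adjustment, and the fold of a low miRNA is understated on this scale. The fit was tested on simulated data. Of simulated log2 changes of 1, 2 and 3, it recovered 0.5%, 7.5% and 23.25% at an adjusted p under 0.05. A miRNA that did not pass is therefore not shown to be unchanged.

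Named were the members, the 5p strands of both miR-148 precursors, the 3 miRNAs most like each guide, and miRNAs of lists of cell types and DNA methyltransferase repressors. Members and lists were chosen with earlier results of these data known. Alternatives were 3 scalings, 2 filters, every row kept, pseudocounts of 0.5 and 0.1, no variance moderation, the replicate block, and leaving out each library. Python 3.11.15 and scipy 1.17.1 were used.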

Additional observations from a re-analysis of the deposited data

How the results depend on the processing

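All log2 fold changes of the 4 members stayed negative under every alternative that gave a value (16 each, and 15 for miR-152-5p, which was not tested with the filter of 10 in 3 libraries), and none passed an adjusted p of 0.05 in limma in any of them. The study's thresholds were met by miR-152-3p in 12 of 16 alternatives, by miR-152-5p in 11 of 15, by miR-148b-3p in 1 and by miR-148a-3p in none. The count of members within them was 2, 3 with median-ratio size factors, and 1 with plain CPM, the filter of 10 in 3 libraries, the own variance of each miRNA (miR-152-3p lost) or the replicate block (miR-152-5p lost, unadjusted p = 0.0711 in limma), and 1 to 2 when 1 library was left out. Over all miRNAs the count of 54 became 30 with plain CPM and 33 to 103 when 1 library was left out, lowest without EXO2 replicate 3 and highest without EXO1 replicate 1. At an adjusted p of 0.05 it was 1 with the own variance, 2 with the replicate block and 0 to 2 when 1 library was left out. The split of higher and lower calls was 24 and 30, against 8 and 22 with plain CPM, 18 and 43 with median-ratio size factors and 37 and 26 relative to the reads outside the erythrocyte and muscle lists, where the median log2 fold change of all miRNAs was -0.43, -0.69 and -0.38. The log2 fold change of miR-148b-5p was -2.54 to 0.69 when 1 library was left out. Between the same-numbered libraries' deviations from their group means the correlations were -0.04, 0.06 and -0.12. Between differently numbered libraries they were -0.11 to 0.16. With 3 libraries per group, these values cannot decide whether the shared replicate numbers paired the libraries. The cause of these shifts was not tested.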
